A study of Mus musculus with 6 samples.

Results

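Liver X receptors (LXRs) are nuclear receptors that bind oxysterols, pair with a retinoid X receptor (RXR) and act on genes that move cholesterol out of the cell. The 8 genes described here are the sterol exporters Abca1 and Abcg1, the receptors Nr1h2 (LXR beta) and Nr1h3 (LXR alpha), and the LXR targets Apoe, Pltp, Mylip and Lpcat3. They were chosen by name out of the 17558 genes of the expression table, with results of these group comparisons already known. Their differences between groups are therefore a description, given without p-values, and their counts of calls support nothing. Adjusted p-values are given for other genes of sterol and phospholipid handling, whose lists were also written with earlier results known.

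RNA was sequenced from C2C12 cells, an immortalised mouse myoblast line that withdraws from the cell cycle and forms myotubes after a change to low-serum medium. There were 3 groups of 2 libraries each. Control cells (shScr, labelled wild type) stably carried a non-targeting scrambled short hairpin RNA, and the other groups stably carried a hairpin against the Pkm1 or the Pkm2 form of pyruvate kinase (labelled Pkm1 knockdown and Pkm2 knockdown). All cells were grown in 10% fetal bovine serum, switched to 2% horse serum with insulin, transferrin and selenium, and harvested 48 h later. The labels do not say whether a line was a clone or a pool, or whether the libraries of a group came from separate cultures, so p-values measure only the spread between these libraries.

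The total was 18216896 to 19796036 estimated counts per library. Pkm1 and Pkm2 messages share all exons but one, and the Pkm1 transcript, which holds the upstream alternative exon (chr9:59675029-59675195), was at 546 and 589 TPM (abundance scaled to transcript length and library size) in the control libraries, 243 and 218 in shPkm1, and 254 and 254 in the shPkm2-labelled libraries. The Pkm2 transcript, with the downstream exon (chr9:59675568-59675734), was at 1073 and 1517 TPM in controls, 1278 and 1379 in shPkm1, and 2700 and 2630 in the shPkm2-labelled libraries. By these transcript estimates the third group did not have less of its labelled target, and it is called "labelled shPkm2" throughout. The estimates rest on how reads of shared exons were split between transcripts. Summed over transcripts, Pkm differed from controls by a log2 fold change of -0.63 in shPkm1 and 0.20 in the third group, the latter not called by edgeR. With limma on log2(TPM + 1) these values were -0.24, not called, and 0.66. The summed TPM of 12 muscle differentiation markers was 31268 and 24633 in controls, 12582 and 13511 in shPkm1, and 1473 and 1381 in the shPkm2-labelled libraries. Of the 12, edgeR called 0 higher and 11 lower in shPkm1 than in controls (31.8% and 31.4% of all genes). In the third group 1 was higher and 11 were lower (33.9% and 34.2%). The higher one was Myf5, at 11.6 and 13.4 TPM in controls, 20.8 and 18.2 in shPkm1, and 59.4 and 54.2 in the third group. Myog, a transcription factor of muscle differentiation, was at 2336 and 1988 CPM (counts scaled to library size) in controls, 1097 and 1162 in shPkm1, and 49.2 and 56.9 in the third group. The control libraries differed from each other more than other replicates did, with a chi-square per degree of freedom of 30.8 against 5.94 in shPkm1 and 6.66 in the shPkm2-labelled libraries.

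An LXR-RXR pair is known to bind a direct repeat of AGGTCA with 4 bases between the copies. RefSeq promoter windows (GRCm38.p6, 250 bases before to 50 after a start site) were matched for 7 of the 8 genes, all but Abcg1, and searched on both strands for the best match to the 12 letters of this repeat. The best matches of the exporter Abca1, the receptor Nr1h3 and the enzyme Lpcat3 are shown as an exporter, a receptor and an enzyme with at most 4 mismatches, with the repeat in capitals and flanking and spacer bases in lower case, 5′ to 3′ on the strand of the match.
Abca1, chr4:53159941-53159968, plus strand: gcgccgGGGTTActacCGGTCAaacgct
Nr1h3, chr2:91195145-91195172, plus strand: gagcaaAGGTCCcggcACGGCCcggaat
Lpcat3, chr6:124662999-124663026, minus strand: gcagcaAGGTAGgaagAGGGCGgggccg

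The Abca1 match lay 67 to 52 bases before the start site and differed from the repeat at 3 letters, A1G, C5T and A7C, counting from 1 over the 12 letters without the spacer. Among all 32851 windows of this length, 21.9% held a match with at most 3 mismatches. The Nr1h3 and Lpcat3 matches, like those of Nr1h2 and Apoe, had 4 mismatches, as 76.9% of windows did or did better. Mylip and Pltp had 5, a number met by 99.8% of windows. These letters are a description of the windows and not of binding.

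Abca1 (NCBI gene 11303; chr4:53030789-53159988, minus strand), which loads cholesterol and phospholipid onto lipid-poor apolipoproteins, was low in every library. It had 3 and 16 counts in the control libraries, 56 and 55 in shPkm1, and 36 and 27 in the shPkm2-labelled libraries. The groups did not overlap, with shPkm1 highest and controls lowest. The log2 fold change on CPM was 2.34 (SE 0.442) in shPkm1 against controls, 1.39 (SE 0.475) in the shPkm2-labelled libraries against controls, and -0.95 (SE 0.363) between the latter and shPkm1.

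Abcg1 (NCBI gene 11307; chr17:31057694-31117984), which passes cholesterol on to lipid-bearing lipoprotein particles, stood apart in shPkm1. Its level was 0.254 and 1.13 CPM in controls, 7.03 and 5.51 in shPkm1, and 0.847 and 0.859 in the shPkm2-labelled libraries. Both shPkm1 libraries were above all others, and the shPkm2-labelled libraries lay between the controls. In shPkm1 the log2 fold change against controls was 3.13 (SE 0.393), and that of the shPkm2-labelled libraries against shPkm1 was -2.87 (SE 0.365). The corresponding value against controls was 0.26 (SE 0.501) for the shPkm2-labelled libraries. Per transcript length, Abcg1 was 3.00 and 2.15 times the TPM of Abca1 in controls and 4.17 and 3.55 times in shPkm1, but 0.875 and 1.17 times in the shPkm2-labelled libraries. The control ratios are imprecise, since they rest on 4 and 20 counts of Abcg1 and 3 and 16 of Abca1.

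The size of these differences depended on the control library and on the scale. Without control library 1 the log2 fold change of Abca1 in shPkm1 was 1.66 and without control library 2 it was 3.88. For Abcg1 these values were 2.46 and 4.59. In the shPkm2-labelled libraries the Abca1 difference from controls was 0.72 without control library 1 and 2.93 without control library 2, and that of Abcg1 was -0.40 and 1.73. On log2(TPM + 1), where the added 1 exceeds most of these levels, the shPkm1 difference from controls was 0.49 for Abca1 and 1.34 for Abcg1, and that of the shPkm2-labelled libraries was 0.25 and 0.13. Between the hairpin groups these values were -0.24 for Abca1 and -1.21 for Abcg1. Of the 8 genes, 7 were higher in control library 2 than in control library 1, by a ratio of 4.75 for Abca1, 4.46 for Abcg1, 2.97 for Nr1h3, 1.92 for Apoe and 1.36 for Pltp. The summed TPM of the muscle markers was lower in control library 2, where 9 of the 12 were lower by CPM and Myf5, Cdh15 and Chrna1 higher, and their part in these differences was not tested.

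**Figure D1:**
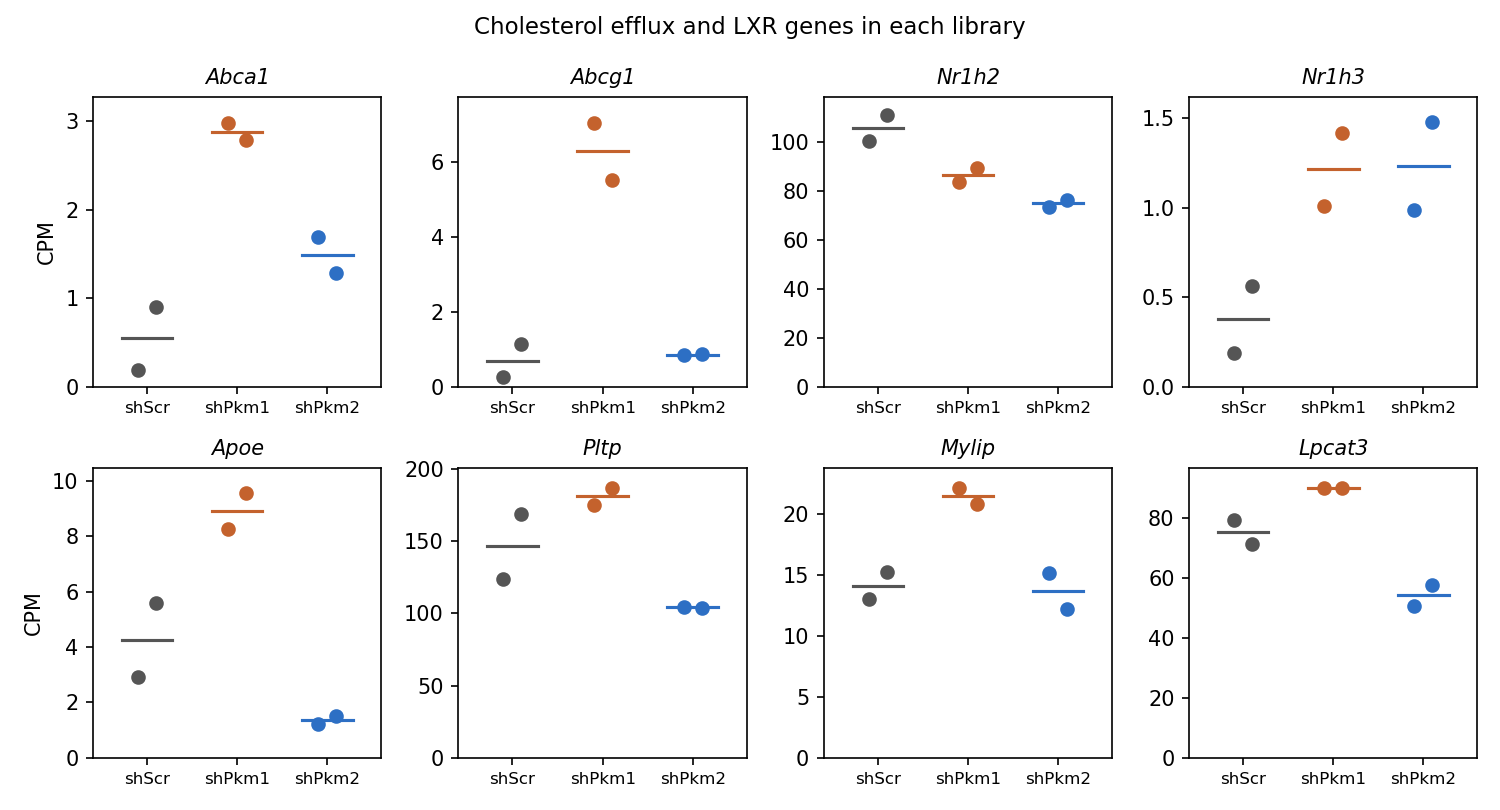
CPM of each of the 8 genes (vertical axes, each from 0) in every library (points) of the shScr, shPkm1 and labelled shPkm2 groups, with a line at the mean of the 2 libraries. Abcg1 is at 7.03 and 5.51 CPM in shPkm1 and at most 1.13 elsewhere, while Nr1h2 is highest in the control libraries.

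Among the receptors, Nr1h2 (NCBI gene 22260; chr7:44549616-44553968, minus strand) supplied nearly all LXR message. It was at 101 and 111 CPM in controls, 83.9 and 89.7 in shPkm1, and 73.7 and 76.6 in the shPkm2-labelled libraries. The groups did not overlap and controls were highest. The log2 fold change against controls was -0.29 (SE 0.0982) in shPkm1 and -0.50 (SE 0.0984) in the shPkm2-labelled libraries. On TPM the shPkm1 libraries (79.5 and 80.5) lay between the controls (66.6 and 83.2), and the difference turned to 0.10 on the log2(TPM + 1) scale, so the direction in shPkm1 depended on the scaling.

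Nr1h3 (NCBI gene 22259; chr2:91184061-91202829, minus strand), the receptor known to be raised by its own activity in some cell types, had 3 and 10 counts in controls, 19 and 28 in shPkm1, and 21 and 31 in the shPkm2-labelled libraries. Both hairpin groups were above both control libraries and overlapped each other. The log2 fold change against controls was 1.64 (SE 0.497) and 1.66 (SE 0.492), and 0.02 (SE 0.391) between the hairpin groups. Without control library 1 the first of these values was 1.10 and the second 1.12, and without control library 2 they were 2.64 and 2.66. On log2(TPM + 1) they were 0.82 and 0.84. Nr1h3 made up 0.225% and 0.597% of the TPM of both receptors in controls, 1.41% and 1.84% in shPkm1, and 1.54% and 2.15% in the shPkm2-labelled libraries. Nr1h3 overlaps Acp2 and Gm23390 in the annotation, and strandedness is not given in the sources used here.

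Counts for Nr1h2 were split among 6 RefSeq transcripts in ways that differed between libraries of 1 group. One transcript held 0 and 473 counts in the control libraries, although the sums were 1587 and 1970. Only the sum over transcripts is therefore used.

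**Figure D2:**
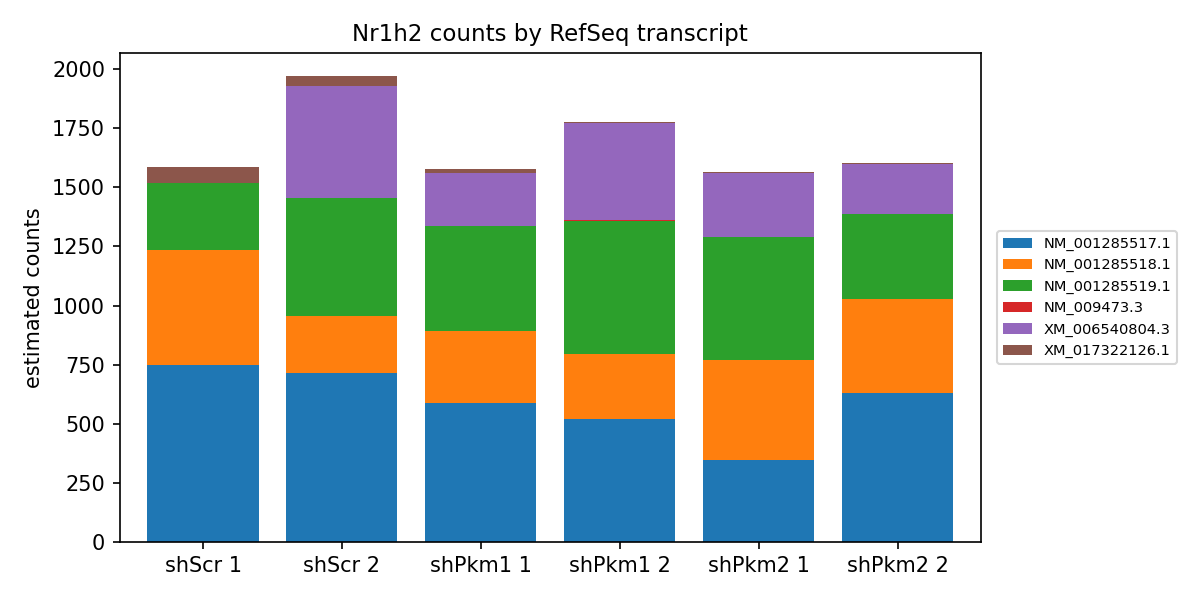
Estimated counts of Nr1h2 (vertical axis) in each library, stacked by RefSeq transcript (colours). The sum lies between 1566 and 1970 counts in all 6 libraries, while the share of single transcripts changes between replicates.

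Of the secreted carriers, Apoe (NCBI gene 11816; chr7:19696244-19701310, minus strand), an apolipoprotein that takes up cell cholesterol, differed from controls in opposite directions in the hairpin groups. Its level was 2.92 and 5.59 CPM in controls, 8.25 and 9.56 in shPkm1, and 1.22 and 1.53 in the shPkm2-labelled libraries. The groups did not overlap. Apoe had a log2 fold change against controls of 1.05 (SE 0.253) in shPkm1 and -1.64 (SE 0.312) in the shPkm2-labelled libraries, and -2.69 (SE 0.288) between them. Without control library 1 the shPkm1 value was 0.67 and without control library 2 it was 1.61, and for the shPkm2-labelled libraries the corresponding values were -2.02 and -1.08. On log2(TPM + 1) the latter group differed from controls by -0.84.

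Pltp (NCBI gene 18830; chr2:164839518-164857708, minus strand), which transfers phospholipid between lipoproteins, was the most abundant of the 8 genes. It was at 124 and 169 CPM in controls, 175 and 187 in shPkm1, and 104.5 and 103.9 in the shPkm2-labelled libraries. The groups followed the same order as for Apoe, without overlap. The log2 fold change was 0.30 (SE 0.127) in shPkm1 and -0.49 (SE 0.128) in the shPkm2-labelled libraries, and it was 0.10 and -0.70 without control library 1. Without control library 2 these values were 0.54 and -0.25. Pltp overlaps Ctsa in the annotation.

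Mylip (NCBI gene 218203; chr13:45389742-45411940, plus strand) encodes a ubiquitin ligase that sends lipoprotein receptors, Vldlr and Lrp8 among them, to degradation. It was at 13.1 and 15.3 CPM in controls, 22.2 and 20.8 in shPkm1, and 15.2 and 12.2 in the shPkm2-labelled libraries. The shPkm1 libraries were above the others, which overlapped. Mylip differed from controls by a log2 fold change of 0.60 (SE 0.138) in shPkm1 and -0.05 (SE 0.142) in the shPkm2-labelled libraries. The latter was 0.27 when only library totals were used for scaling and 0.07 without control library 2, so it had no fixed direction.

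Lpcat3 (NCBI gene 14792; chr6:124663094-124704716, plus strand), an acyltransferase that puts polyunsaturated chains into phospholipids, was at 79.6 and 71.4 CPM in controls, 90.0 and 90.3 in shPkm1, and 50.6 and 57.9 in the shPkm2-labelled libraries. The groups did not overlap. Fitted log2 fold changes were 0.26 (SE 0.103) in shPkm1, -0.48 (SE 0.104) in the shPkm2-labelled libraries and -0.73 (SE 0.104) between them. Lpcat3 overlaps Emg1 in the annotation.

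Scaling mattered for the small differences. Using library totals only moved the median of all genes by 0.19, 0.32 and 0.13 on the log2 scale in shPkm1 against controls, the shPkm2-labelled libraries against controls, and the latter against shPkm1. With totals the difference of the shPkm2-labelled libraries from controls was -0.17 for Nr1h2, -0.17 for Pltp and -0.15 for Lpcat3. On log2(TPM + 1) these values were -0.04, -0.02 and -0.0031. The lower levels of these 3 genes against controls are thus relative to the other genes. In shPkm1 the same settings raised the difference from controls to 0.49 and 0.71 for Pltp, and to 0.45 and 0.68 for Lpcat3. Between the hairpin groups, Pltp, Lpcat3, Mylip, Apoe, Abcg1, Abca1 and Nr1h2 kept a lower level in the shPkm2-labelled libraries under all alternatives that tested them. Abca1 ranged from -1.16 to -0.24 and Nr1h2 from -0.27 to -0.08.

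**Figure D3:**
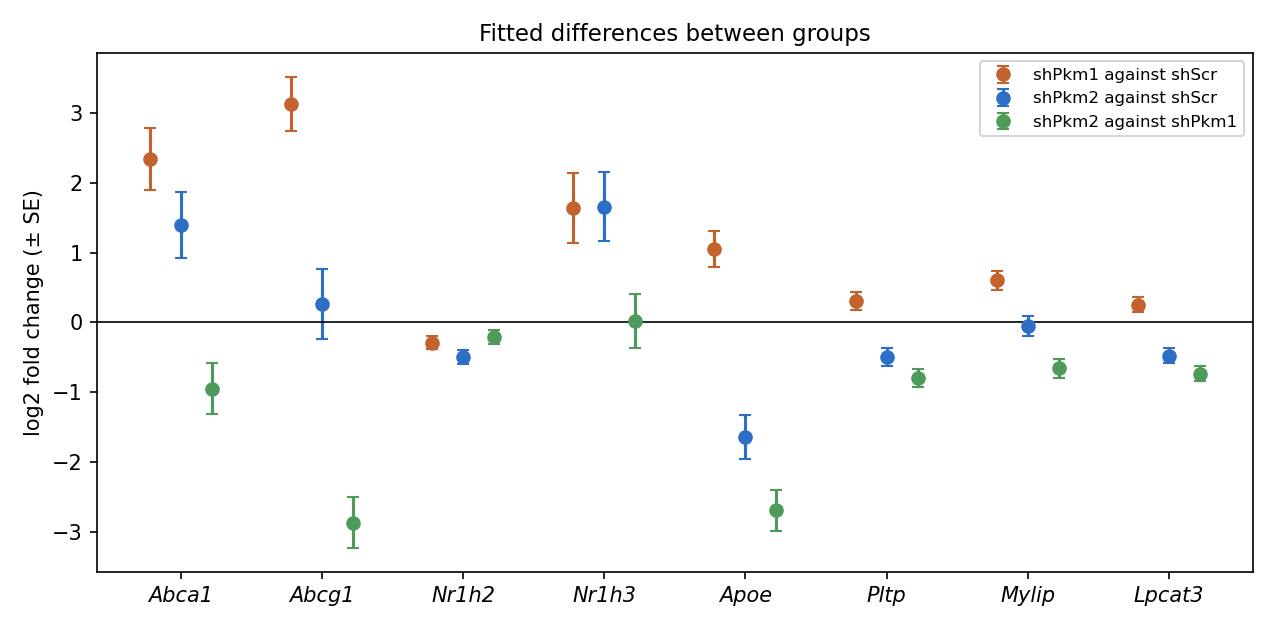
Fitted log2 fold change (vertical axis, with SE bars) of the 8 genes for the 3 comparisons (colours). Abcg1 (3.13) and Abca1 (2.34) lie highest in shPkm1 against shScr, and Abcg1 (-2.87) and Apoe (-2.69) lie lowest in the shPkm2-labelled libraries against shPkm1.

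With edgeR's quasi-likelihood test and an adjusted p threshold of 0.05, all 8 genes passed the filter on low counts, although Abca1, Abcg1 and Nr1h3 reached 10 counts in 1 control library only. In shPkm1 against controls, 6 were higher and 1 lower, beside 31.8% and 31.4% of all 12643 genes tested. In the shPkm2-labelled libraries against controls, 2 were higher and 4 lower, beside 33.9% and 34.2%. Against shPkm1, 6 were lower in the shPkm2-labelled libraries, while Nr1h2 and Nr1h3 were not called, and of all genes 27.3% were lower and 25.7% higher. Nothing is read from these counts, since the genes were chosen with the comparisons known. Their median log2 fold changes were 0.83, -0.26 and -0.76, and with library totals only the second became 0.06.

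Per transcript length, the order of levels was similar in all groups. In controls Pltp led with a mean of 116.5 TPM (SD 35.1, n = 2), followed by Nr1h2 at 74.9 (SD 11.8), Lpcat3 at 46.4 (SD 1.06), Mylip at 6.67 (SD 1.30) and Apoe at 4.995 (SD 2.55). Mylip and Apoe overlapped in controls and in shPkm1. Nr1h3 (0.325 TPM), Abcg1 (0.170) and Abca1 (0.075) came last in controls, each overlapping its neighbour. In shPkm1 Abcg1, at 1.96 TPM (SD 0.410, n = 2), stood above Nr1h3 at 1.33 (SD 0.262), and Abca1 was last at 0.505 (SD 0.0495). In the shPkm2-labelled libraries Abca1 and Abcg1 were both at 0.275 TPM.

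The table was also searched for the 2 genes whose centred log2 CPM profile over the 6 libraries was nearest to each of the 8, by Euclidean distance. Nearest to Abca1 were Car3 (distance 0.60, r = 0.99) and Notum, and to Abcg1 Nphp4 (0.63, r = 0.99) and Nkd2. Nearest to Apoe were Rflnb (0.64, r = 0.97) and Dcn (0.67, r = 0.99), the latter a marker of the fibroblast list. Nearest to Nr1h3 were Cda and Cd14 (0.61, r = 0.96), the latter a marker of the macrophage list. Nearest to Nr1h2, Pltp, Mylip and Lpcat3 were Ctbp1, Mxra8, Adal and Arrdc2. The 6 points share 3 groups and 2 libraries in each, so the correlations are descriptions.

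Apoe, Abca1 and Nr1h3 are also expressed by macrophages and other non-muscle cells. All libraries came from the C2C12 line, so the markers below describe message in that line and not numbers of macrophages or adipocytes. In bulk samples, fewer cells in a given state cannot be told apart from less RNA per cell. Of 10 macrophage markers 8 were in the table, Aif1 and C1qa were at or under 3 counts in every library, and the summed TPM was 3.92 and 7 in controls, 17.6 and 15.7 in shPkm1, and 17.6 and 18.9 in the shPkm2-labelled libraries. Most of that sum was Cd14, at 2.51 to 15.1 TPM. Itgam had 30 and 22 counts in controls, 7 and 1 in shPkm1, and 0 and 0 in the shPkm2-labelled libraries, and Csf1r had 9 and 11, 32 and 32, and 2 and 5. Of the 5 macrophage markers that passed the filter, edgeR called 4 higher and 1 lower in shPkm1 than in controls (31.8% and 31.4% of all genes), and 2 higher and 2 lower in the third group (33.9% and 34.2%). Of 8 adipocyte markers 7 were in the table, 5 of them, Adipoq included, at or under the floor in every library. The list summed to 4.12 and 4.45 TPM in controls, 8.06 and 8.40 in shPkm1, and 4.60 and 4.38 in the third group. Only 1 of them, Lipe, passed the filter. Against controls, edgeR called it higher in shPkm1 (31.8% of all genes) and lower in the third group (34.2%). The 8 mesenchymal markers, 1 of them (Thy1) at or under the floor, summed to 10375 and 8271 TPM in controls, 10609 and 10678 in shPkm1, and 3332 and 3229 in the shPkm2-labelled libraries. Acta2 made up most of the control sum, at 9338 and 6999 TPM against 4978 and 5219 in shPkm1. Col1a1 was at 359 and 362 TPM in controls, 2585 and 2552 in shPkm1, and 50.5 and 43.2 in the third group, and Dcn at 12.7 and 20.5, 46.8 and 39.4, and 9.67 and 11.2. Pdgfra of the same list was higher in both, at 1.02 and 1.61 TPM in controls, 8.44 and 8.34 in shPkm1, and 10.2 and 9.47 in the third group. Of the 6 mesenchymal markers that passed the filter, edgeR called 5 higher and 1 lower in shPkm1 than in controls, and 1 higher and 4 lower in the third group, beside the same shares of all genes. Their part in the levels of the 8 genes was not tested.

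Other genes of the pathway were taken from 9 lists with 111 genes, of which 98 were tested. In shPkm1 against controls 41 were higher and 25 lower (31.8% and 31.4% of all genes), with a median log2 fold change of 0.10. The third group had 27 higher and 43 lower than controls (33.9% and 34.2% of all genes), with a median of -0.21. Against shPkm1, 21 were higher and 46 lower (25.7% and 27.3% of all genes), with a median of -0.24. Fewer were higher without shPkm1 library 2 or without library 1 of the third group. With library totals only, 47 were higher and 20 lower in shPkm1 than in controls, with a median of 0.30, and of all 12643 genes 5116 were higher and 2656 lower. For the third group that scaling turned the median to 0.11, with 41 higher and 29 lower than controls (48.2% and 21.4% of all genes), and on log2(TPM + 1) it was 0.20, with 43 higher and 22 lower (52.4% and 16.8% of all genes). Against shPkm1 the median was -0.11 with totals. The medians over all genes tested were -0.000147, 0.00736 and 0.00464.

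Vldlr and Lrp8 are lipoprotein receptors that Mylip acts on. Vldlr was at 1.96 and 2.03 CPM in controls, 30.0 and 25.4 in shPkm1, and 0.612 and 0.286 in the shPkm2-labelled libraries. By edgeR's quasi-likelihood test it rose by 3.79 on the log2 scale in shPkm1 (SE 0.196, adjusted p = 5.77e-09). In the third group Vldlr fell by 2.14 (SE 0.346, edgeR adjusted p = 0.000107), which was -0.22 and not called on log2(TPM + 1). Lrp8 rose in both groups, by 1.89 (SE 0.169) and 3.29 (SE 0.156). On log2(TPM + 1) the shPkm1 values were 2.50 for Vldlr and 1.14 for Lrp8. Of the 9 receptors and uptake genes tested, 5 were higher and 2 lower in shPkm1 than in controls (31.8% and 31.4% of all genes), and 3 higher and 5 lower in the shPkm2-labelled libraries (33.9% and 34.2%).

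The list of sterol synthesis holds enzymes of the pathway, most of them known targets of the sterol-sensing factor SREBP2, and the regulators Srebf2, Scap, Insig1 and Insig2. Of its 21 tested genes 15 were higher and 3 lower in shPkm1 than in controls (31.8% and 31.4% of all genes), with a median of 0.62. Hmgcs1, which makes the precursor of mevalonate, rose by 1.13 (SE 0.104, edgeR adjusted p = 9.41e-07) and Idi1, an isomerase later in the pathway, by 1.46 (SE 0.177, edgeR adjusted p = 1.11e-05). Dhcr7 and Mvd, both enzymes, and Scap, the escort protein of SREBP, were the 3 that were lower. In the third group 1 of the 21 was higher and 14 were lower than in controls (33.9% and 34.2% of all genes), with a median of -0.42. With library totals only the counts were 5 and 7 (48.2% and 21.4% of all genes) and the median -0.09. Against shPkm1, 18 of the 21 were lower in the shPkm2-labelled libraries and 1 was higher (27.3% and 25.7% of all genes), with a median of -0.99, and 16 were lower with library totals only (21.3% of all genes).

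**Figure D4:**
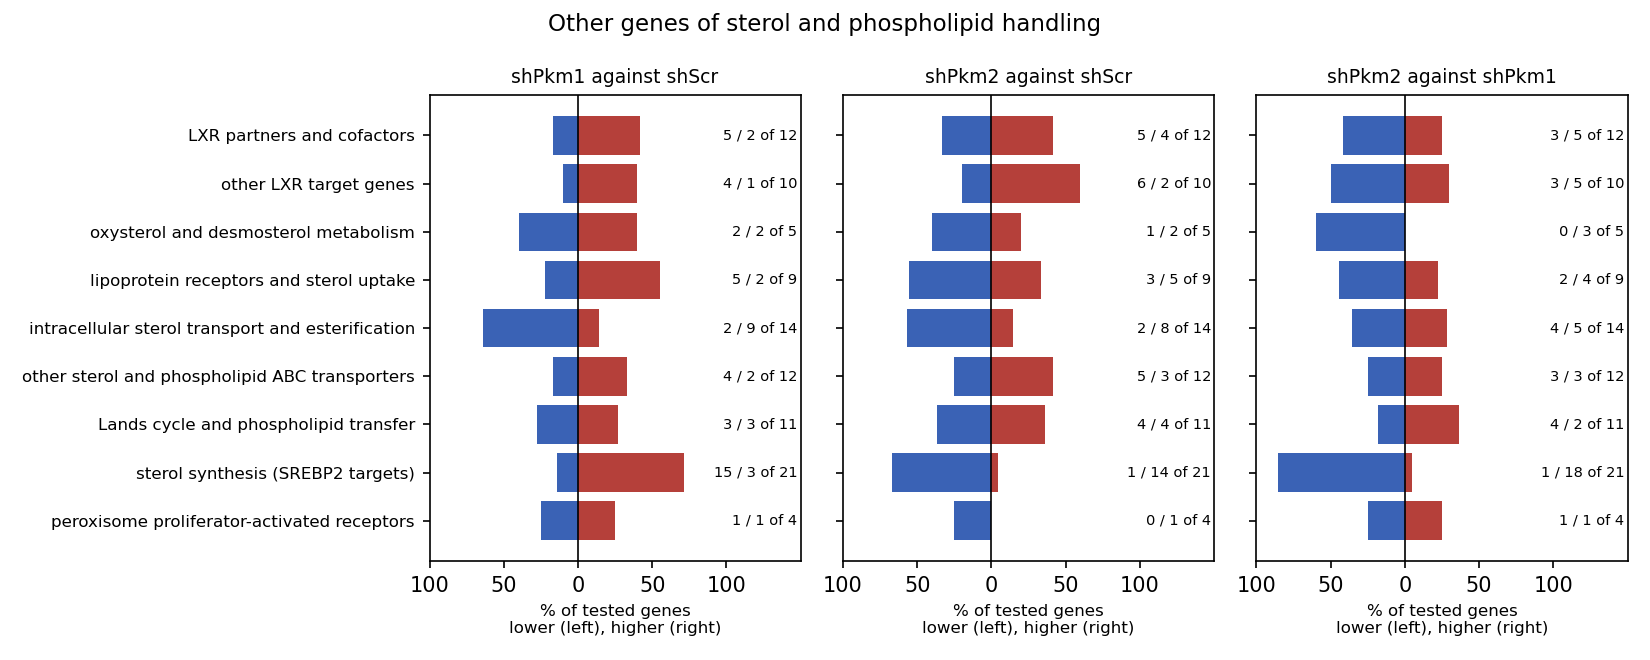
Share of tested genes (horizontal axis, %) that were higher (right) or lower (left) in each of the 9 lists, for the 3 comparisons. Numbers at the right give higher, lower and tested genes, and sterol synthesis has 15 higher of 21 in shPkm1 against shScr and 18 lower of 21 in the shPkm2-labelled libraries against shPkm1.

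Scd1, a desaturase that makes monounsaturated fatty acids, rose by 1.15 in shPkm1 (SE 0.107, edgeR adjusted p = 1.08e-06), and Mertk, a receptor for apoptotic cell uptake, by 1.91 (SE 0.219, edgeR adjusted p = 7.14e-06). Mertk was also higher in the shPkm2-labelled libraries, by 2.09 (SE 0.216). On log2(TPM + 1) the shPkm1 value of Mertk was 1.23. Lpl, a lipase of triglyceride-rich particles, rose by 1.73 (SE 0.182) in the shPkm2-labelled libraries, and Arl4c by 1.14. Tgm2, a transglutaminase, fell by 1.59 and 2.43. Of 10 tested LXR targets beyond the 8 genes, 4 were higher and 1 lower in shPkm1 (31.8% and 31.4% of all genes) and 6 higher and 2 lower in the shPkm2-labelled libraries (33.9% and 34.2%). Fewer than these 6 were higher without library 2 of the third group, and the shPkm1 counts were larger without either control library, with 12 genes tested. Abcg4, Abcg5, Abcg8, Apoc1 and Cyp7a1 did not pass the filter.

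Of 12 tested partners and cofactors of LXR, 5 were higher and 2 lower in shPkm1 (31.8% and 31.4% of all genes) and 5 higher and 4 lower in the shPkm2-labelled libraries (33.9% and 34.2%). Most of the calls in shPkm1 were lost without shPkm1 library 1, and fewer genes were called in the third group without its library 1. With library totals only, the 6 genes called in shPkm1 were higher (40.5% of all genes), and 7 were higher and 1 lower in the third group (48.2% and 21.4%). Rxra, a partner of LXR on DNA, was at 0.25 in shPkm1 (SE 0.101, edgeR adjusted p = 0.0466) and -0.52 in the shPkm2-labelled libraries (SE 0.102, edgeR adjusted p = 0.00047). Rxrb fell by 0.54 in the latter. With library totals only these falls were -0.20 for Rxra and -0.22 for Rxrb, and neither was called, while the shPkm1 value of Rxra became 0.44. With limma on log2(TPM + 1) they were -0.05 and -0.07, neither called, and the shPkm1 value of Rxra was 0.62 and called. The shPkm1 call of Rxra was lost when control library 1 was left out (0.19), and likewise without either shPkm1 library (0.33 and 0.18), without either library of the third group (0.26 and 0.26), with the replicate block (0.25), with only the 2 groups compared (0.26), and with DESeq2 or its size factors (0.24 and 0.24). The coactivator Med1 rose by 0.47 and 0.74, and the first of these was 0.35 and no longer called without shPkm1 library 1 (edgeR adjusted p = 0.0514). Among oxysterol enzymes, Ch25h, which makes the LXR ligand 25-hydroxycholesterol, was 0.60 higher in shPkm1 (SE 0.202, edgeR adjusted p = 0.0195). This call was lost without shPkm1 library 1 (0.53) and with DESeq2 (0.60, DESeq2 adjusted p = 0.0631). With limma on log2(TPM + 0.1) the value was 0.98 and called.

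Within the cell, 9 of 14 tested sterol transport and esterification genes were lower in shPkm1 (31.4% of all genes) and 8 in the shPkm2-labelled libraries (34.2%), against 2 higher in each (31.8% and 33.9% of all genes). With library totals only 6 and 4 were lower (2656 and 2702 of all 12643 genes). Fewer were lower in shPkm1 without either shPkm1 library, and in the third group without its library 2. The sterol carrier Stard4 was higher in both, by 1.07 and 1.07. In the third group the membrane sterol carrier Gramd1b fell by 1.96 and the lysosomal cholesterol carrier Npc2 rose by 0.86, which was 1.32 on log2(TPM + 1). Of 12 other ABC transporters 4 were higher and 2 lower in shPkm1 (31.8% and 31.4% of all genes) and 5 higher and 3 lower in the third group (33.9% and 34.2%). The drug pump Abcb1b rose by 2.01 in shPkm1 and 1.51 in the shPkm2-labelled libraries.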

How the data were processed

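RNA of the 6 C2C12 libraries was analysed from 1 deposited table with a row per RefSeq transcript. Per the file headers, the authors gave estimated counts and TPM per transcript and library. Both were used, and 6 FPKM and 9 group mean columns were not. The submitters' processing notes list HISAT, StringTie, Bowtie, RSEM, DESeq2 and the build mm10, without versions or roles. Strandedness is not given in the sources used here.

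Estimated counts were summed per NCBI gene and rounded, and 17445 of 17558 genes were matched to a symbol. The unmatched 113 genes held at most 0.148% of counts. Genes passing filterByExpr (minimum count 10, minimum total 15) were tested with edgeR 4.0.16 in R 4.3.3 (TMM scaling, 1 coefficient per group, all 6 libraries, quasi-likelihood F-test, two-sided, Benjamini-Hochberg over 12643 genes, threshold 0.05). Standard errors are the log2 fold change divided by the square root of F. A count of 3 or less was the floor, and floors cover counting error only. The procedure was tested on simulated data.

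The 8 genes, the pathway and marker lists and the tests were chosen with earlier results of these data known. Besides the 8 genes, Pkm and Myog, the named genes were those with the largest changes per list and comparison (up to 2 higher and 2 lower, called, mean of at least 50 counts, groups not overlapping) and the 2 nearest profiles per gene. Outside this rule, Acta2, Cdh15, Chrna1, Col1a1, Csf1r, Itgam, Lipe, Myf5 and Pdgfra of the marker lists, where Cd14 and Dcn came in as nearest profiles, were named after their values were seen. Genes at the floor or not passing the filter, and the regulators of the sterol synthesis list, are named to describe their lists. Results of some genes that this rule names are not reported here, although list counts include them. Isoforms of Pkm and promoter windows came from GENCODE and RefSeq on GRCm38.p6. Alternatives were other scaling, filters, a replicate block, pairwise fits, leaving out each library, DESeq2 1.42.0 and limma 3.58.1 on log2(TPM + 1) and log2(TPM + 0.1). Correlations of same-numbered replicates' deviations were between -0.03 and 0.05. They show no strong shared deviation and cannot tell whether same-numbered libraries were handled together.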

Additional observations from a re-analysis of the deposited data

How the results depend on the processing

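With 2 libraries per group, 1 library could decide a call, and the numbers of genes called across all genes stayed within 1.5 times of the reported ones under every alternative run. The number of the 8 genes called in shPkm1 against controls was 7, and 4 to 6 when 1 library was left out. In the shPkm2-labelled libraries against controls it was 6, and 3 with library totals only, 2 with limma on log2(TPM + 1) and 3 with limma on log2(TPM + 0.1). Of all genes, 8602 were called there, and 8797, 8744 and 8784 under these 3 settings. With the replicate block 7, 6 and 6 of the 8 were called in the 3 comparisons and 7922, 8566 and 6682 of all genes. The block replaced Lpcat3 by Pltp in shPkm1 against controls. The direction changed for these values. Nr1h2 in shPkm1 was 0.10 with both limma fits, where Ncoa1 was 0.0254 and 0.0278. Abcg1 in the shPkm2-labelled libraries against controls, at 0.26, turned to -0.40 without control library 1 and kept its direction at 1.73 without control library 2. Mylip there was 0.27 with library totals, 0.07 without control library 2, 0.10 without library 2 of the group labelled shPkm2, and 0.36 and 0.40 with limma. Nr1h3 between the hairpin groups, at 0.02, turned to -0.21 without shPkm1 library 1 and -0.31 without library 2 of the group labelled shPkm2, and kept its direction at up to 0.28 without 1 of the other libraries. The cause was not tested. Abca1 between the hairpin groups was called in 6 of 14 alternatives. The share of calls that were higher in shPkm1 against controls was 50.3%, and 65.8% with library totals and 78.1% with limma on log2(TPM + 1). In the shPkm2-labelled libraries against controls it was 49.8%, 69.3% and 75.7%, and against shPkm1 48.4%, 61.3% and 53.8%.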

Other observations

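The Lands cycle exchanges the fatty acid chains of phospholipids. Of 11 tested genes of this cycle and of phospholipid transfer, 3 were higher and 3 lower in shPkm1 than in controls (31.8% and 31.4% of all genes), and 4 were higher and 4 lower in the shPkm2-labelled libraries (33.9% and 34.2%). Pla2g4a, a phospholipase that releases arachidonic acid, was higher in both, by 1.41 (SE 0.143, edgeR adjusted p = 2.31e-06) and 1.75 (SE 0.14, edgeR adjusted p = 1.45e-07). Agpat3, an acyltransferase, fell by 2.00 and 1.72. Of 4 tested peroxisome proliferator-activated receptors and coactivators, 1 was higher and 1 lower in shPkm1 than in controls (31.8% and 31.4% of all genes). Pparg, the adipogenic nuclear receptor, was 0.88 higher (SE 0.241, edgeR adjusted p = 0.00641). The coactivator Ppargc1b fell by 1.35 (SE 0.154, edgeR adjusted p = 6.88e-06), which was -0.80 on log2(TPM + 1). In the third group Ppargc1b fell by 0.78 (SE 0.147, edgeR adjusted p = 0.000391), which was -0.45 with library totals only and -0.24, not called, on log2(TPM + 1).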
